A study of Mus musculus with 22 samples.

Results

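Morphine was compared with saline in the mouse nucleus accumbens with the drinking water held constant, so that the change shared by mice on plain water and mice on antibiotics could be described gene by gene. All 22 deposited libraries were used, 10 from mice given morphine and 12 from mice given saline, and 14564 of 24061 gene entries had enough counts to be tested. The mice were male C57BL/6J of 7 to 9 weeks, conventionally raised and group-housed, and the labels name no engineered allele. The 4 groups were plain water with saline (6 libraries), plain water with morphine (5), antibiotic water with saline (6) and antibiotic water with morphine (5). Morphine was given at 20 mg/kg per day for 7 days, and the antibiotics are a kind that the gut does not absorb and were labelled as depleting the gut microbiome. RNA came from bulk tissue, so every cell type of the dissected region contributed. The labels do not say whether the numbered samples of a group are separate animals, and the p-values therefore measure only the spread between these samples.

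The nucleus accumbens is the ventral part of the striatum and takes part in reward. Most of its neurons are GABAergic projection neurons that carry dopamine receptors and make opioid peptides, and they are surrounded by interneurons, astrocytes, microglia, oligodendrocytes and blood vessels. Morphine acts mainly at the mu opioid receptor, a G protein-coupled receptor that lowers cAMP production and dampens the firing and release of the cells that carry it.

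Counts assigned to genes ran from 9357299 to 15330947 per library, and the libraries of morphine mice held more of them (mean difference 1826980, exact permutation test within each water, adjusted p = 0.0122 over 6 library measures). The defining transcripts of striatal projection neurons were present in every group: Penk, the enkephalin precursor, ran from 705 to 1630 CPM (counts relative to the TMM-scaled library size) over the saline libraries and from 838 to 1367 over the morphine libraries. The share of reads aligned more than once fell by 0.644 percentage points under morphine (adjusted p = 0.00389), and the ambiguous share fell by 0.0481 (adjusted p = 0.0139). The share outside genes and the level of Malat1 did not pass (adjusted p = 0.428 and 0.9995), and 1 saline library of the antibiotic group held 2463 CPM of Malat1 where the other 21 held 164 to 1007.

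Under morphine a part of the DNA repair, chromatin, adhesion and channel genes rose. A part of the ribosomal, respiratory chain, microglial, myelin and vessel genes fell. Many calls were lost in a fit without each library's trend with transcript length, described below. That fit called 3.65% of all genes higher and 7.81% lower. There 6 of 39 DNA repair genes and 2 of 56 chromatin genes rose, and 5 chromatin genes fell. Of 48 adhesion genes 3 rose and 2 fell, and of 25 sodium and calcium channel genes 2 rose and 1 fell. Falls numbered 4 of 76 ribosomal, 7 of 77 respiratory chain, 15 of 23 microglial, 10 of 26 myelin and 9 of 25 endothelial genes. The chromatin, ribosomal and respiratory chain counts lay near or below the shares of all genes in that fit. With each library's length slope as a covariate no gene passed. Of the 14564 genes, 2936 passed an adjusted p of 0.05 in the additive edgeR quasi-likelihood fit (20.2%), 1450 higher (9.96%) and 1486 lower (10.2%). The changes were small: their median size was 0.19 on the log2 scale, 79 genes changed 1.5-fold or more, 4 genes rose (0.0275%) and 1 fell (0.00687%) by 2-fold or more. A total of 22 genes had all 10 morphine libraries on one side of all 12 saline libraries (0.151%), 17 above and 5 below. The count was 86 without antibiotic saline replicate 6, 40 without antibiotic saline replicate 4, 37 without water morphine replicate 3 and 38 without water morphine replicate 4.

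The clearest rises were in Klhl11, Shprh and Xrn1. Klhl11, a substrate adaptor of a cullin ubiquitin ligase, ran from 19.1 to 26.8 CPM with a median of 21.7 in the saline libraries and from 28.4 to 37.5 with a median of 32.2 in the morphine libraries. No morphine library overlapped a saline library, in plain water or in antibiotic water. The log2 change was 0.56 ± 0.055 (SE, 10 against 12 libraries, adjusted p = 1.36e-06). Xrn1, the cytoplasmic exonuclease that degrades decapped mRNA, ran from 15 to 23.6 CPM with a median of 19.7 under saline and from 23.8 to 40.3 with a median of 32.4 under morphine. Those groups did not overlap either, although the highest saline and lowest morphine values lay close together, and the log2 change was 0.70 ± 0.069 (adjusted p = 1.36e-06). Shprh, a ubiquitin ligase of DNA damage tolerance, rose from a median of 43.7 CPM (38.7 to 47.2) to 55.8 (47.9 to 65.8), a log2 change of 0.39 ± 0.039.

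**Figure D1:**
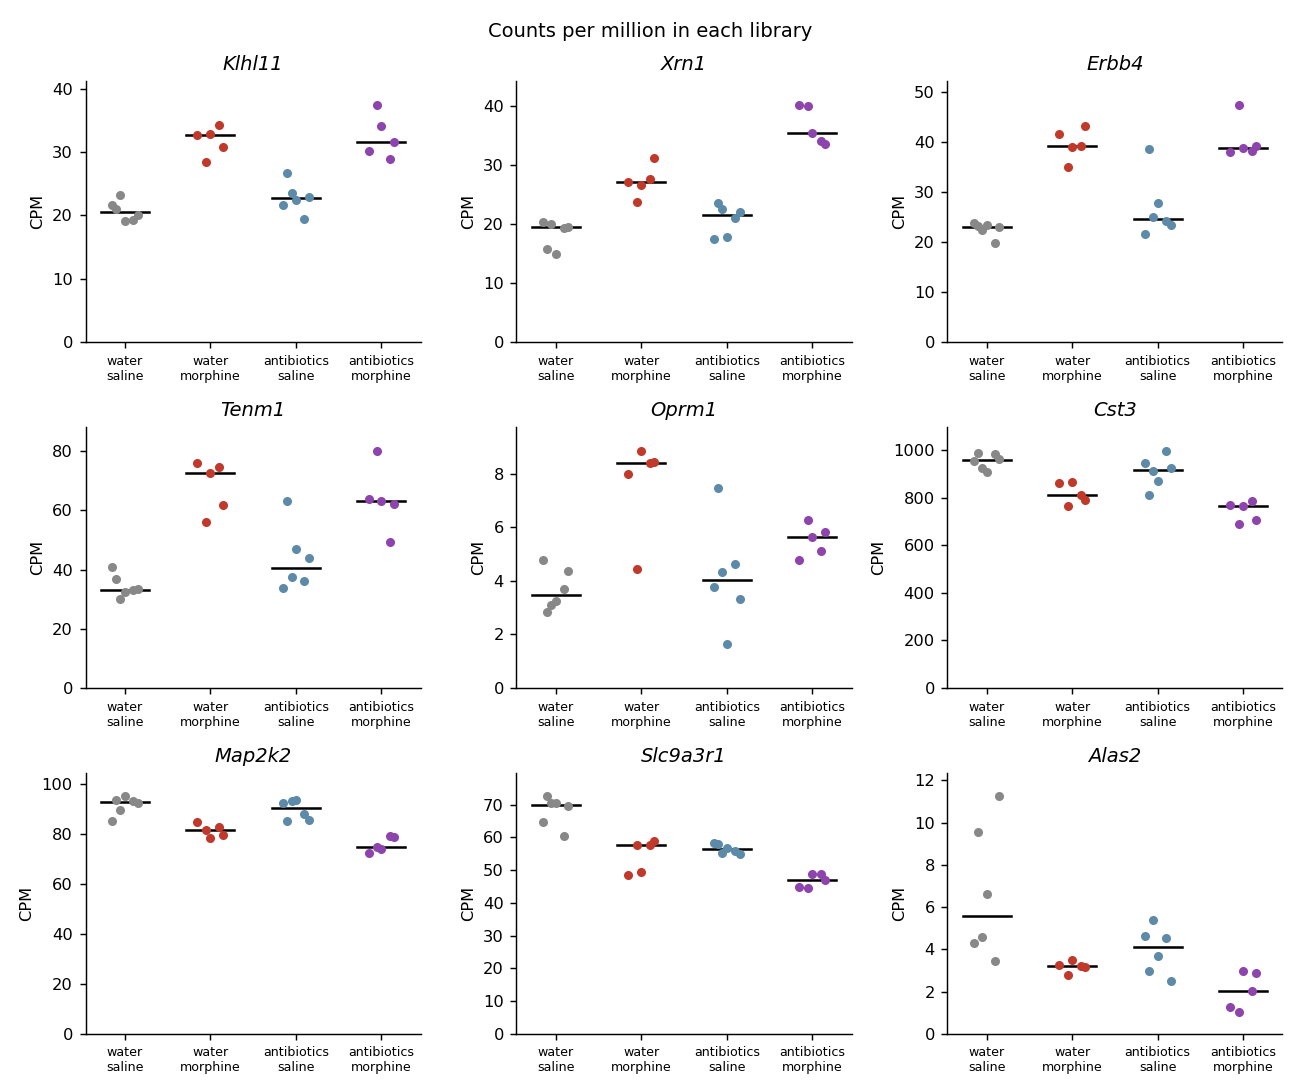
CPM (depth-scaled counts, vertical axes from 0) of 9 genes in each of the 22 libraries, by drinking water and treatment. Each point is 1 library and each black bar the median of its group. Klhl11, Xrn1 and Map2k2 do not overlap between morphine and saline, while 1 saline library of the antibiotic group reaches the morphine values for Erbb4 and Tenm1.

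Other genes among the 15 rises with the smallest p act in the ubiquitin system, nuclear transport and splicing. Usp9x and Usp24, both deubiquitinases, rose by 0.41 ± 0.047 and 0.27 ± 0.034, and Trip12, a ubiquitin ligase, by 0.32 ± 0.038. Tnpo1, a nuclear import receptor, rose by 0.55 ± 0.060, and Son, a splicing cofactor of nuclear speckles, by 0.30 ± 0.034. Pdpr, a regulatory subunit of pyruvate dehydrogenase phosphatase, rose by 0.47 ± 0.055, Slc36a4, an amino acid transporter, by 0.43 ± 0.050, and the kinase Tnik by 0.37 ± 0.045. Zfp318 and Dennd4a both rose by 0.27 and, like Klhl11, Shprh, Xrn1, Son and Pdpr, kept every morphine library above every saline library.

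The falls with the smallest p were mostly smaller in size than the rises. Slc9a3r1, a scaffold that anchors membrane transporters and receptors, ran from 54.9 to 72.6 CPM with a median of 59.3 under saline and from 44.6 to 58.8 with a median of 48.9 under morphine. Within each water the morphine libraries lay below all saline libraries, and the log2 change was -0.29 ± 0.040 (adjusted p = 5.39e-05). Cst3, the secreted protease inhibitor cystatin C, fell from a median of 936 CPM (813 to 999) to 778 (692 to 866), a log2 change of -0.26 ± 0.036. Map2k2, a kinase of the ERK pathway, fell from a median of 92.4 CPM (85.2 to 95.2) to 79.2 (72.5 to 84.8), a log2 change of -0.21 ± 0.030 with no overlap between the libraries. The other 4 genes with all morphine libraries below all saline libraries were Cox6b1, Hspa1l, Nabp2 and Rilpl1, which are named because of that count. Among the other falls with the smallest p were Pkig, an inhibitor of protein kinase A (-0.25 ± 0.035), Pmm1, a phosphomannomutase (-0.20 ± 0.027), Bsg, a chaperone of lactate transporters (-0.21 ± 0.032), Snrpa, a protein of the splicing machinery (-0.30 ± 0.045), and Qdpr, which regenerates tetrahydrobiopterin (-0.29 ± 0.045). Edf1, Banf1, Tspan31 and Arl3 fell by 0.20 to 0.27.

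The largest falls among genes with a mean of at least 1 CPM were in low-level transcripts. Alas2, the heme synthesis enzyme of red blood cell precursors, ran from 2.49 to 11.2 CPM with a median of 4.55 under saline and from 1.03 to 3.48 with a median of 2.92 under morphine. Saline libraries mostly lay above the morphine range, and the log2 change was -1.0 ± 0.21 (adjusted p = 0.00182). Klk6, a protease made by oligodendrocytes, fell by 0.67 ± 0.15, Bfsp2 by 0.64 ± 0.12, Tcte2 by 0.71 ± 0.13, Upp1, a uridine phosphorylase, by 0.63 ± 0.17 and Fgf3 by 0.73 ± 0.25. The call of Fgf3 was near the threshold (adjusted p = 0.0424) and was lost without any 1 of 14 libraries.

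The morphine change of a gene moved with its annotated transcript length across the whole transcriptome, and many named genes show it. Klhl11, the rise with the smallest p, does not, with a transcript of 2393 nt. The median length of the longest protein-coding transcript was 6124 nt among genes called higher, 1965 nt among genes called lower and 3259 nt among the 13889 genes whose length is known. With the genes in 5 equal bins by length, in the bin of the shortest transcripts 0.935% were called higher and 24.7% lower, and in the bin of the longest 31.7% were called higher and 1.37% lower. The length slope of a library, the change in log2 CPM relative to each gene's mean for a 2-fold longer transcript, ran from -0.078 to -0.011 in water mice given saline and from 0.028 to 0.047 in those given morphine. In antibiotic mice it ran from -0.053 to 0.048 under saline and from 0.025 to 0.055 under morphine. Apart from 1 saline library of the antibiotic group, saline and morphine libraries did not overlap (difference 0.0752, exact permutation test within each water, p = 3.75e-05, adjusted p = 0.000225 over 6 measures). With the slope as a covariate no gene passed in edgeR (1528 at an unadjusted p under 0.05) or in limma-voom (1558), and standard errors were 1.89 times larger at the median. Of the 2936 calls 2579 (87.8%) kept their sign there, and the length slope and the treatment, which move together over the libraries, cannot be told apart in that fit. Without the 1 saline library whose slope lay in the morphine range the fit with the slope called 0 genes as well (679 at an unadjusted p under 0.05).

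**Figure D2:**
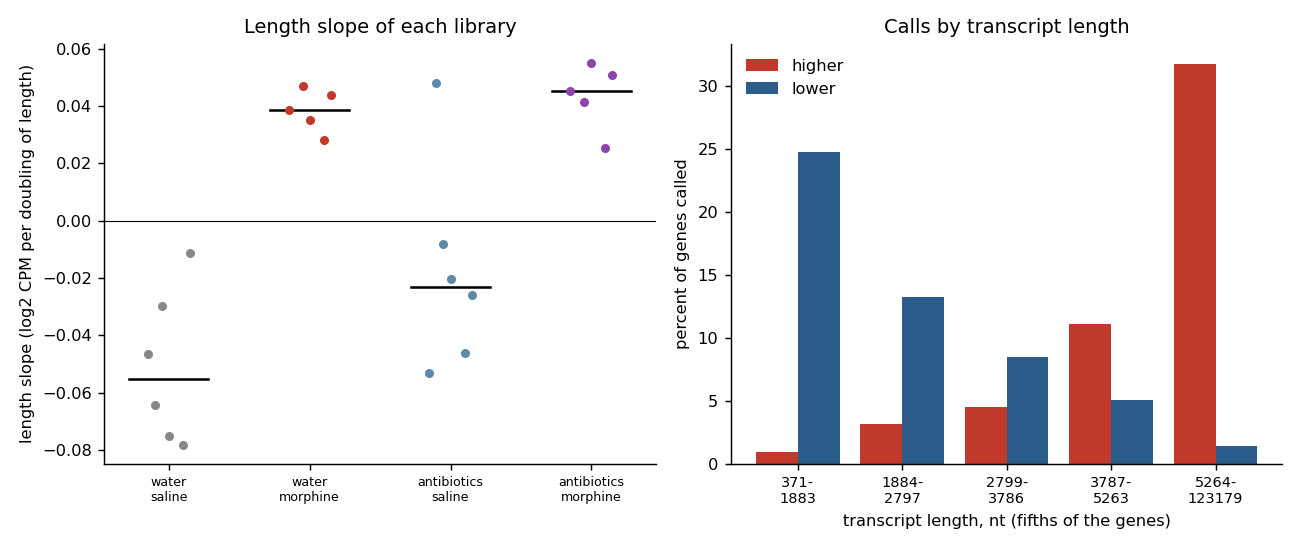
Left: length slope of each of the 22 libraries (log2 CPM per 2-fold transcript length) by group, with medians as black bars; the 10 morphine libraries lie between 0.025 and 0.055 and 11 of 12 saline libraries lie below 0. Right: percent of genes called higher or lower in 5 equal bins of the genes by transcript length in nt, with higher calls at 0.935% in the shortest bin and 31.7% in the longest.

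A second fit took out each library's own trend with length and kept the treatment term. It called 1592 of 13889 genes (11.5%), 507 higher (3.65%) and 1085 lower (7.81%). Of these, 1174 had the same call in the additive fit, 459 higher and 715 lower, and 1 gene had the opposite call. Counts from this fit are given beside most groups below as "with the length trend removed". They stand against its shares of 3.65% higher and 7.81% lower, and counts of the additive fit against 9.96% and 10.2%. Tested within each water, 6.58% of all genes passed in water mice and 13% in antibiotic mice, in either direction. Klhl11 (0.58), Xrn1 (0.52), Tnpo1 (0.41) and Pdpr (0.41) remained called there, as did Slc9a3r1 (-0.25), Map2k2 (-0.18), Cst3 (-0.16) and Alas2 (-0.97). Zfp318 (0.05, adjusted p = 0.323) and Usp24 (0.08, adjusted p = 0.151) did not.

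Among opioid genes the mu receptor had the largest change. Of 8 opioid receptor and peptide genes tested, 2 rose and none fell, against backgrounds of 9.96% and 10.2%. Oprm1, the mu receptor through which morphine acts, ran from 1.62 to 7.48 CPM with a median of 3.72 under saline and from 4.43 to 8.86 with a median of 6.04 under morphine. The ranges overlapped, because 1 saline library of the antibiotic group reached 7.48 and 1 morphine library of the water group held 4.43, while the other 4 morphine libraries of that group lay at 8.0 to 8.86. The log2 change was 0.72 ± 0.18 (adjusted p = 0.00659) and 0.74 with the length trend removed. With the length slope of each library as a covariate it was 0.09 (adjusted p = 0.945). The change, without that covariate, was 1.04 in water mice and 0.38 in antibiotic mice, and the difference between these did not pass (adjusted p = 0.426). Oprl1, the nociceptin receptor, rose by 0.21 ± 0.066 (adjusted p = 0.025), a call lost without any 1 of 2 libraries. Oprk1, the kappa receptor, had a log2 change of 0.20 ± 0.12 (adjusted p = 0.249), Oprd1, the delta receptor, 0.04 ± 0.095 (0.802), Penk -0.14 ± 0.11 (0.398) and Pdyn, the dynorphin precursor, -0.13 ± 0.12 (0.488).

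Downstream of G proteins few genes changed. Of 38 genes of adenylyl cyclases, protein kinase A and phosphodiesterases 3 rose and 1 fell, against backgrounds of 9.96% and 10.2%. Neither this list nor that of G protein regulators and arrestins exceeded these shares. Akap11, a protein kinase A anchor, rose by 0.26 ± 0.041 and kept all morphine libraries above all saline libraries. Pde4d, a cAMP phosphodiesterase, rose by 0.17 ± 0.036, and Adcy9, an adenylyl cyclase, by 0.18 ± 0.061, the latter a call lost without any 1 of 12 libraries and at 0.01 in water mice and 0.35 in antibiotic mice. Ppp1r1a, an inhibitor of protein phosphatase, fell by 0.30 ± 0.064. Of 20 G protein regulators and arrestins Rgs17 rose by 0.25 ± 0.059, and Rgs10 and Rgs4 fell by 0.29 ± 0.095 and 0.26 ± 0.087. Pde4d and Ppp1r1a passed with the length trend removed, and Akap11, Adcy9, Rgs17, Rgs10 and Rgs4 did not.

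Immediate early genes, which neurons switch on within minutes of strong activity, gave 0 rises and 1 fall among 26. Over all genes 9.96% rose and 10.2% fell. The median log2 change of the 26 was 0.18, against 0.00 for all genes, and 19 of 26 lay above 0. With the length trend removed 0 rose and 0 fell. The fall in the additive fit was Jund (-0.11 ± 0.037), a call that was lost without any 1 of 14 libraries. Nr4a1 had a log2 change of 0.65 ± 0.23 (adjusted p = 0.0572) and Egr2 of 0.77 ± 0.29 (adjusted p = 0.0705), and both spread widely within groups: Nr4a1 ran from 36.2 to 141 CPM under saline and from 32.2 to 171 under morphine.

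Circadian clock genes rose in part: 6 of 21 passed, none fell, and 1 passed with the length trend removed. Over all genes 9.96% rose and 10.2% fell, and with the length trend removed 3.65% rose and 7.81% fell. Tested within each water, 1 rose in water mice and 5 in antibiotic mice, and none fell in either. The median log2 change was 0.01 in water mice and 0.14 in antibiotic mice, and 11 of 21 had the same sign in both. The difference between waters passed for none of the 21. Ciart, a repressor of the clock's activators, ran from 19.7 to 31.0 CPM with a median of 21.4 under saline and from 23.6 to 40.2 with a median of 31.0 under morphine. Morphine libraries lay above saline libraries within each water, without overlap, and both antibiotic groups had higher medians than the water groups of the same treatment. The log2 change was 0.39 ± 0.059 (adjusted p = 0.000148) and 0.43 with the length trend removed. Clock, the activator itself, rose by 0.22 ± 0.047, Nr1d2, a nuclear receptor of the clock, by 0.16 ± 0.040 and Per1, a repressor, by 0.25 ± 0.069. The other rises were Per3 and Rora, named to complete the count. Clock proteins bind the E-box, and the letters CACGTG, which read the same on both strands, stood in the 250 bases before the start of 5 of the 18 clock genes with a RefSeq window and of 9.71% of all 11479 genes with one. The same letters stood in 5 of the 21 windows of immediate early genes, a list with 0 rises. The windows of Ciart (chr3:95882229-95882478, minus strand) and Per1 (chr11:69098699-69098948, plus strand), RefSeq on GRCm38.p6, are shown 5′ to 3′ with that motif in capitals, because both genes rose and their windows hold it. They were chosen after their values and motifs were seen.
Ciart: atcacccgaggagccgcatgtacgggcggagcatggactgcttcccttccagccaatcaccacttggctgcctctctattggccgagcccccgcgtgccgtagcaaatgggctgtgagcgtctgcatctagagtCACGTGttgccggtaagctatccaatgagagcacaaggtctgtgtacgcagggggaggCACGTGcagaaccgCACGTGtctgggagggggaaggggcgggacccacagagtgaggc
Per1: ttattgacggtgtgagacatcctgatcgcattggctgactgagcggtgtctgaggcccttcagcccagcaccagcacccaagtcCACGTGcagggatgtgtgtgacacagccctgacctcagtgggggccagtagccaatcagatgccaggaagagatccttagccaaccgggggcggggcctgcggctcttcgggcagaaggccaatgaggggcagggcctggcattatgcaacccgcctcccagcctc
The Ciart window holds 3 copies and the Per1 window 1. Over all calls the share with the motif was 10.1% among genes that rose and 9.62% among genes that fell, near the 9.71% of all genes. The other 4 motifs searched on both strands were the cAMP response element TGACGTCA, the PU.1 motif GAGGAAGT, the NRF1 motif and the ETS motif CCGGAAGT. They stood in 3.26%, 3.09%, 2.49% and 7.12% of the windows of genes that rose, in 3.34%, 2.26%, 2.26% and 8.11% of those that fell, and in 2.99%, 2.61%, 1.74% and 6.12% of all windows.

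Of 23 glucocorticoid-responsive genes 6 rose and 1 fell, against 9.96% and 10.2% of all genes. With the length trend removed 4 rose and 1 fell, against 3.65% and 7.81%. Tested within each water, none rose and 2 fell in water mice, and 10 rose and none fell in antibiotic mice, with a median log2 change of -0.03 in water mice and 0.34 in antibiotic mice. Hif3a, a hypoxia-inducible factor subunit induced by glucocorticoids, ran from 3.40 to 5.11 CPM in water mice given saline and from 4.42 to 6.58 in those given morphine. In antibiotic mice it ran from 5.69 to 15.8 under saline and from 15.9 to 29.2 under morphine, so that the groups separated there and overlapped in plain water. Its log2 change was 0.91 ± 0.18 (adjusted p = 0.00139). Plin4, a lipid droplet protein, changed by 1.32 ± 0.31, with 0.48 in water mice and 1.71 in antibiotic mice. The difference between waters did not pass for these 2 genes (adjusted p = 0.318 and 0.443). It passed for Fkbp5, Cdkn1a, Arrdc2 and Mfsd2a of the same list, which are named for that count. Fkbp5, a cochaperone of the glucocorticoid receptor, changed by -0.06 in water mice and 0.72 in antibiotic mice (adjusted p of the difference 0.0206).

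Synaptic and neuronal adhesion genes gave 17 rises and no fall among 48, against 9.96% and 10.2% of all genes. Their median length was 5862.5 nt. With the length trend removed 3 rose and 2 fell, against 3.65% and 7.81% of all genes. Tested within each water, 13 rose and none fell in water mice, and 1 rose and 1 fell in antibiotic mice. The median log2 change was 0.15 in water mice and 0.10 in antibiotic mice. The difference between waters passed for none of the 48. Tenm1, a teneurin of synapse formation, ran from 29.9 to 63.1 CPM with a median of 36.3 under saline and from 49.2 to 80.2 with a median of 63.5 under morphine. The groups did not overlap in plain water and overlapped through 1 saline library in antibiotic water. Its log2 change was 0.77 ± 0.11 (adjusted p = 0.000124) and 0.56 with the length trend removed. Lsamp, Lphn3 and Slitrk4 rose by 0.24 ± 0.042, 0.26 ± 0.049 and 0.37 ± 0.081. Erbb4, the neuregulin receptor of inhibitory interneurons, ran from 19.8 to 38.7 CPM with a median of 23.4 under saline and from 35.0 to 47.5 with a median of 39.0 under morphine. One saline library of the antibiotic group (38.7) lay within the morphine range, and it is the library whose length slope also lay there. The log2 change of Erbb4 was 0.70 ± 0.077 (adjusted p = 7.32e-06) and 0.50 with the length trend removed. Of 14 neuregulin, ErbB and neurotrophin receptor genes Nrg3, an Erbb4 ligand, and Ntrk2, the BDNF receptor, were the only other rises (0.38 ± 0.12 and 0.18 ± 0.044). With the length trend removed 1 of the 14 rose and none fell.

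Of 25 sodium and calcium channel genes 9 rose and 2 fell (2 and 1 with the length trend removed), at a median length of 8225 nt. Cacna1d and Cacna1e, pore subunits of calcium channels, rose by 0.25 ± 0.040 and 0.37 ± 0.072, Cacna1b, that of presynaptic calcium channels, by 0.21 ± 0.037 and Scn2a1, a sodium channel, by 0.26 ± 0.050. Of 40 potassium channel genes 4 rose, near the background of 9.96%, and none fell (1 rose with the length trend removed). Kcnk9, a leak channel, rose from a median of 7.01 CPM to 12, a log2 change of 0.66 ± 0.13, and was 0.46 with the length trend removed. Kcnma1 and Kcnq3 rose by 0.39 ± 0.11 and 0.33 ± 0.093.

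Calls among transmitter receptor genes stand against backgrounds of 9.96% of all genes higher and 10.2% lower. Among 27 genes of GABA and glycine receptors and synapses 5 rose and 1 fell (1 and 2 with the length trend removed). Gabrb1 rose by 0.43 ± 0.068 and Gabrg3 by 0.31 ± 0.091, while Gabrd, the subunit of extrasynaptic receptors, fell by 0.30 ± 0.090. Among 31 glutamate receptor genes 4 rose and 3 fell, near the background in both directions (1 and 4 with the length trend removed). Grin2a, an NMDA receptor subunit, rose by 0.67 ± 0.14, while the AMPA receptor partners Cnih2 and Cacng3 fell by 0.19 ± 0.039 and 0.22 ± 0.058. Of 38 vesicle release genes Rims2 and Pclo, both of the active zone, rose (0.16 ± 0.037 and 0.28 ± 0.079), and Napa and Cplx2, which act on SNARE proteins, fell (-0.19 ± 0.033 and -0.13 ± 0.047). With the length trend removed Pclo, whose transcript is 20084 nt long, was at 0.01 (adjusted p = 0.901). In that fit 0 of the 38 vesicle release genes rose and 4 fell.

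A part of the chromatin and DNA repair genes passed, most of these as higher. Of 56 chromatin and DNA methylation enzymes 19 rose and 3 fell, with a median length of 7008 nt. With the length trend removed 2 rose and 5 fell, near the 3.65% and 7.81% of all genes. Tet1 and Tet2, which oxidise methylcytosine, rose by 0.43 ± 0.073 and 0.47 ± 0.077, and Kdm5a, a histone demethylase, by 0.31 ± 0.046. Of these 3 genes Tet2 kept its call with the length trend removed (0.31, adjusted p = 0.0115). Of 39 DNA repair genes 12 rose and none fell, and 6 rose with the length trend removed. Rev3l, the catalytic subunit of a translesion polymerase, ran from 40.7 to 57.7 CPM with a median of 49.9 under saline and from 59.8 to 83.4 with a median of 65.4 under morphine. The groups did not overlap, and the log2 change was 0.46 ± 0.051 (adjusted p = 7.76e-06). Xpc, a damage sensor of nucleotide excision repair, rose by 0.47 ± 0.094, Fancm by 0.41 ± 0.077 and Atm, a damage checkpoint kinase, by 0.29 ± 0.054. Of 41 mRNA decay genes 9 rose and 2 fell, Xrn1 first, then Cnot1 of the deadenylase complex (0.21 ± 0.029), Dis3 of the exosome (0.44 ± 0.080) and Smg1 of nonsense-mediated decay (0.27 ± 0.059). Xrn1 and Dis3 passed with the length trend removed, and Cnot1 and Smg1 did not. In that fit 3 of the 41 mRNA decay genes rose and 1 fell.

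**Figure D3:**
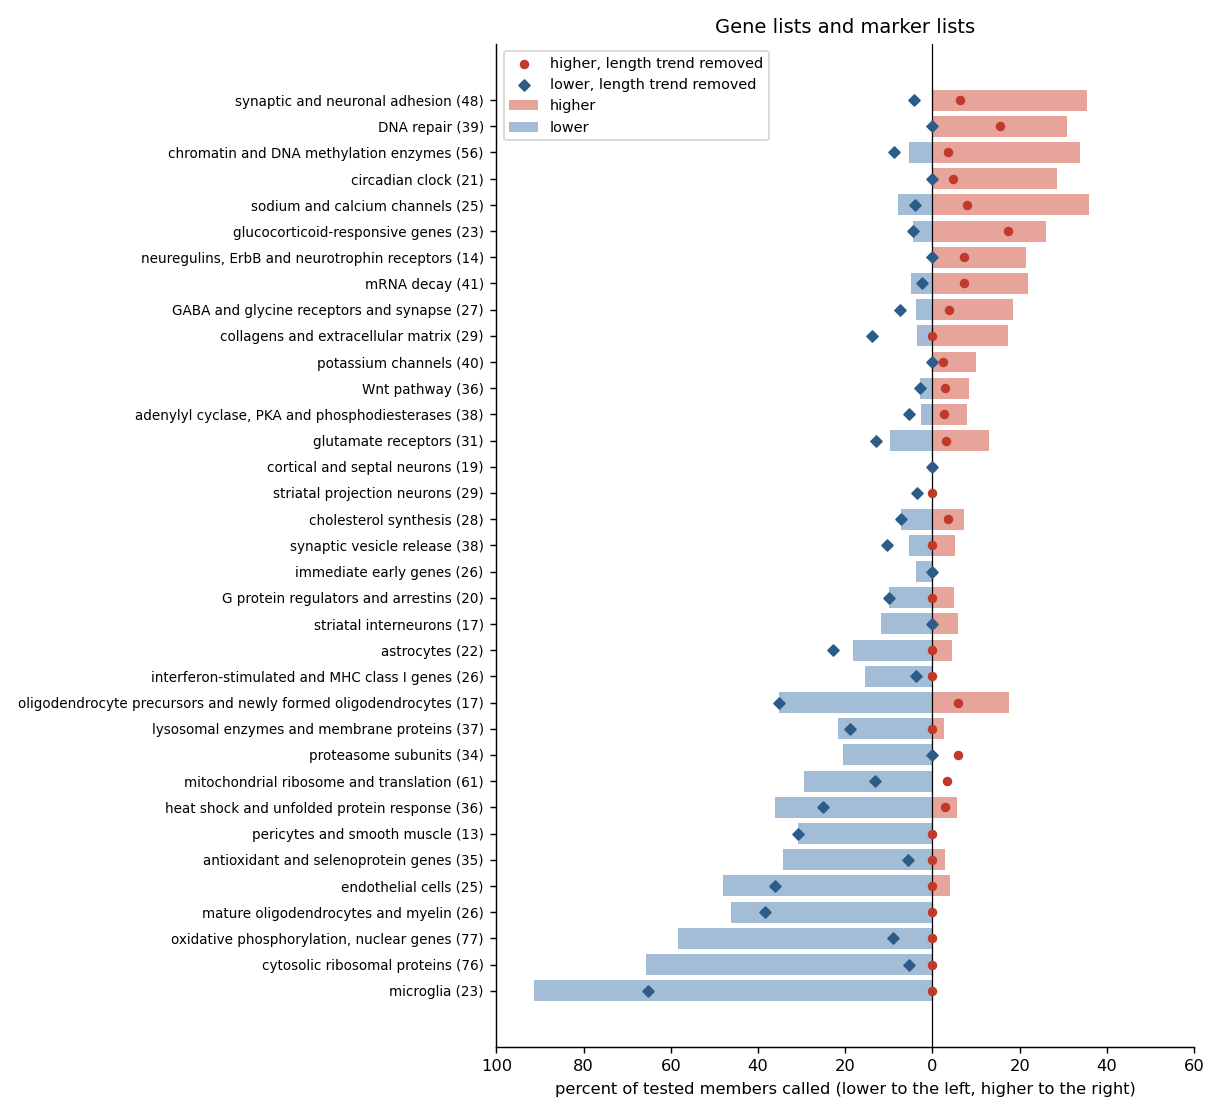
Percent of the tested members of each gene list and marker list called higher (bars to the right) or lower (bars to the left) in the additive fit, with the number tested in brackets, for lists of 12 or more. Points give the same percentages with the length trend removed: they stay far to the left for microglia and move close to 0 for ribosomal and respiratory chain genes.

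Genes of protein synthesis and respiration fell together, and their lists hold mostly short transcripts. Of 76 cytosolic ribosomal protein genes 50 fell and none rose, with 74 of 76 below 0, a median log2 change of -0.13 and a median length of 925.5 nt. With the length trend removed 4 fell. Rpl28 ran from 131 to 156 CPM with a median of 145 under saline and from 119 to 132 with a median of 127 under morphine. In plain water the morphine libraries lay below all saline libraries, in antibiotic water 1 saline library (131) lay within the morphine range, and the log2 change was -0.19 ± 0.028 (adjusted p = 0.000109). Rps29, Rpl38 and Rps28 fell by 0.22 ± 0.041, 0.17 ± 0.032 and 0.18 ± 0.035. Of 77 nuclear genes of oxidative phosphorylation 45 fell and none rose, with a median of -0.11 and a median length of 918 nt, and with the length trend removed 7 fell. Atp5d, a subunit of ATP synthase, ran from 177 to 228 CPM with a median of 206 under saline and from 161 to 195 with a median of 177 under morphine. Within each water the morphine libraries lay below all saline libraries, and the log2 change was -0.22 ± 0.032. Uqcr11 and Ndufb7, of respiratory complexes, fell by 0.23 ± 0.036 and 0.22 ± 0.035. Of 61 genes of the mitochondrial ribosome and its translation 18 fell (Mrpl28 by 0.24 ± 0.045, Mrpl24 by 0.29 ± 0.058), and with the length trend removed 8 fell and 2 rose. Mrps25 fell by 0.23 ± 0.044 although its transcript is long at 6073 nt, and by 0.32 with the length trend removed.

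Protein folding and lysosomal genes were also mostly lower. Of 36 heat shock and unfolded protein response genes 13 fell and 2 rose, and with the length trend removed 9 fell and 1 rose. Tested within each water, none fell and 2 rose in water mice, and 9 fell and 1 rose in antibiotic mice. The median log2 change was -0.08 in water mice and -0.13 in antibiotic mice. The difference between waters passed for 1 of the 36. Calr and Pdia6, which fold proteins in the endoplasmic reticulum, fell by 0.24 ± 0.041 and 0.23 ± 0.041, Hsph1, a cytosolic chaperone, by 0.26 ± 0.056 and Serpinh1, the collagen chaperone, by 0.49 ± 0.10. Ern1, a sensor of endoplasmic reticulum stress, rose by 0.48 ± 0.082. Of 37 lysosomal genes 8 fell and 1 rose (7 fell with the length trend removed), with Hexa at -0.33 ± 0.053, Ctsz at -0.24 ± 0.048 and Ctsa at -0.15 ± 0.031. Of 35 antioxidant and selenoprotein genes 12 fell and 1 rose, and with the length trend removed 2 fell. Prdx6, Prdx5 and Sepw1 fell by 0.18 ± 0.036, 0.18 ± 0.036 and 0.19 ± 0.037. Of 28 cholesterol synthesis genes 2 rose and 2 fell, among them Lss, which closes the sterol rings (0.34 ± 0.054, adjusted p = 0.000211). With the length trend removed 1 of the 28 rose and 2 fell. Of 29 collagen and matrix genes 5 rose and 1 fell (0 and 4 with the length trend removed), with Col5a1, a fibrillar collagen, at 0.46 ± 0.13.

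Microglial genes had the highest share of falls among the marker lists. In the additive fit 21 of 23 fell and none rose, against a background of 10.2%, with a median log2 change of -0.26. Their median length was 2088 nt, and with the length trend removed 15 of 23 fell at a median of -0.22. The 2 that did not pass were Gpr34 (-0.12) and Sall1 (0.07), named to complete the count. C1qa, a chain of the first complement component, ran from 43.9 to 66.2 CPM with a median of 57.6 under saline and from 34.5 to 54.8 with a median of 42.4 under morphine. Within each water no morphine library overlapped a saline library, while both antibiotic groups had lower medians than the water groups of the same treatment. Its log2 change was -0.31 ± 0.053 (adjusted p = 0.000451). Cx3cr1, the fractalkine receptor, ran from 57.9 to 85.5 CPM with a median of 78.1 under saline and from 44.7 to 79.1 with a median of 63.4 under morphine, a log2 change of -0.30 ± 0.054. Csf1r, the receptor microglia need to survive, ran from 122 to 162 CPM with a median of 148 under saline and from 117 to 148 with a median of 128 under morphine, a log2 change of -0.16 ± 0.031. For both genes the pooled ranges overlapped, and the highest morphine values came from water mice. The mean of the centred log2 CPM of all 23 genes ran from 0.18 to 0.33 in water mice given saline, from 0.0089 to 0.19 in water mice given morphine, from -0.17 to 0.14 in antibiotic mice given saline and from -0.51 to -0.17 in antibiotic mice given morphine. In bulk tissue fewer microglia and less of these RNAs per cell cannot be told apart. Adjusted within each water, 4 microglial genes fell and 1 (Sall1) rose in water mice and 16 fell in antibiotic mice, the median log2 change was -0.21 and -0.33, and the difference between waters passed for none of the 23.

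**Figure D4:**
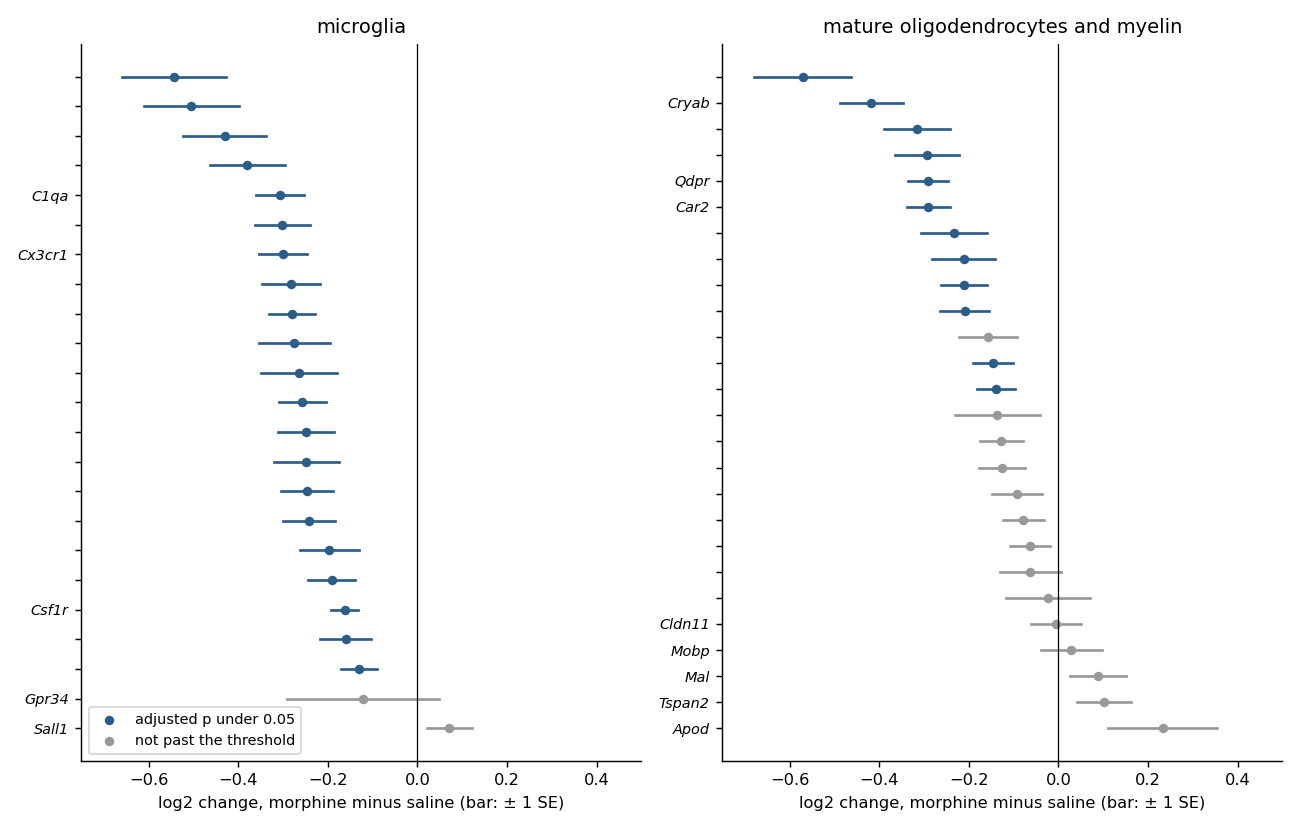
Log2 change of every tested microglial gene (left, 23 genes) and mature oligodendrocyte and myelin gene (right, 26 genes), morphine minus saline, with bars of 1 SE on each side, grey for genes past no threshold and names for the genes described in the text. All microglial genes but Sall1 lie below 0, while myelin genes lie on both sides of 0, with Cryab at -0.42 and Apod at 0.23.

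Oligodendrocyte genes split. Of 26 genes of mature oligodendrocytes and myelin 12 fell and none rose (10 with the length trend removed). Cryab, a small heat shock protein, ran from 64.7 to 107 CPM with a median of 98.7 under saline and from 48.0 to 95.4 with a median of 70.6 under morphine. In plain water the morphine libraries lay below all saline libraries, in antibiotic water the ranges overlapped, and the log2 change was -0.42 ± 0.070 (adjusted p = 0.000383). Tested in antibiotic mice alone, 6 of the 26 fell and 5 rose: Mobp (0.24), Cldn11 (0.18), Mal (0.24), Apod (0.60) and Tspan2 (0.26), all myelin or oligodendrocyte genes named to complete that count. In water mice these lay between -0.20 and -0.06, 5 of the 26 fell and none rose, and the difference between waters passed for Cldn11 alone (adjusted p = 0.0335). Car2, a carbonic anhydrase, fell by 0.29 ± 0.048. Among 17 genes of precursors and newly formed oligodendrocytes 6 fell and 3 rose (6 and 1 with the length trend removed). Bcas1, Olig2 and Sox10 fell by 0.30 ± 0.056, 0.26 ± 0.064 and 0.19 ± 0.048, the last 2 being transcription factors of the lineage. Vcan, a matrix proteoglycan of precursors with a transcript of 12427 nt, rose by 0.44 ± 0.060 (0.23 with the length trend removed).

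A part of the vessel genes fell too. Of 25 endothelial genes 12 fell and 1 rose (9 and 0 with the length trend removed), and of 13 pericyte and smooth muscle genes 4 fell and none rose, the same number as with the length trend removed. Emcn, an endothelial sialoprotein, ran from 5.95 to 10.6 CPM with a median of 9.07 under saline and from 3.88 to 8.08 with a median of 6.82 under morphine. In plain water the morphine libraries lay below all saline libraries, in antibiotic water the ranges overlapped, and the log2 change was -0.42 ± 0.081. Eng, a TGF-beta coreceptor, and Ly6a fell by 0.33 ± 0.059 and 0.31 ± 0.064, and the pericyte genes Vtn, Des, Kcnj8 and Rgs5 by 0.38 ± 0.081, 0.51 ± 0.15, 0.28 ± 0.086 and 0.21 ± 0.065. Of 26 interferon-stimulated and MHC class I genes 4 fell and none rose, against 10.2% and 9.96% of all genes. Among the falls were Psmb8 (-0.45 ± 0.14) and B2m (-0.19 ± 0.060), the latter a call lost without antibiotic morphine replicate 4. With the length trend removed 1 of the 26 fell.

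Neuronal and astrocyte identity genes had smaller shares of calls than microglial genes. Of 29 genes of striatal projection neurons none passed (median -0.11, 25 of 29 below 0). Adora2a, the adenosine receptor of indirect pathway neurons, came nearest at -0.35 ± 0.14 (adjusted p = 0.0782). That list median was close to the -0.11 of the oxidative phosphorylation genes, of which 45 of 77 fell. Of 19 genes of cortical and septal neurons, a check for neighbouring tissue, none passed either. The score of that list (mean of log2 CPM centred over the libraries) ran from -1.57 to 1.46 over the saline libraries and from -1.49 to 1.15 over the morphine libraries, a wide range in both. With that score as a covariate 3442 genes passed, and all 149 genes of the text that passed kept their calls. Of 17 interneuron genes Sst and Npy, peptides of one interneuron class, fell by 0.23 ± 0.047 and 0.22 ± 0.056, and Nos1 of the same class rose by 0.26 ± 0.065. None of these 3 passed with the length trend removed. Of 22 astrocyte genes 4 fell and 1 rose, against 10.2% and 9.96% of all genes. S100b and Slco1c1, a thyroid hormone transporter, fell by 0.28 ± 0.064 and 0.23 ± 0.051. Acsbg1 fell by 0.15 ± 0.042, and the bicarbonate transporter Slc4a4 rose by 0.21 ± 0.053. With the length trend removed 5 of the 22 fell and 0 rose.

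Most calls pointed the same way in both waters. Of the 2936 genes 2918 (99.4%) had the same sign in water mice and in antibiotic mice, against 64.8% of all genes, a share that the additive fit in part fixes because it averages both. A total of 1307 genes (8.97%) had an unadjusted p under 0.05 in the same direction in each water, 692 higher and 615 lower. Tested separately, 959 genes passed in water mice (6.58%) and 1900 in antibiotic mice (13%), and 350 passed in both, which is 36.5% of the former and 18.4% of the latter. These counts come from 1 model of all 4 groups. With each water fitted alone 964 passed in water mice and 1163 in antibiotic mice, so the larger number in antibiotic mice depends in size on the model. In the model of 4 groups the count in water mice was 615, 549, 509 and 556 without saline replicate 4, saline replicate 8, morphine replicate 2 and morphine replicate 6, and that in antibiotic mice 1084, 1101 and 1121 without saline replicate 1, morphine replicate 1 and morphine replicate 3. Of those 350, 342 had the same sign. In 104 genes (0.714%) all morphine libraries lay beyond all saline libraries in the same direction within each water, 65 above and 39 below.

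**Figure D5:**
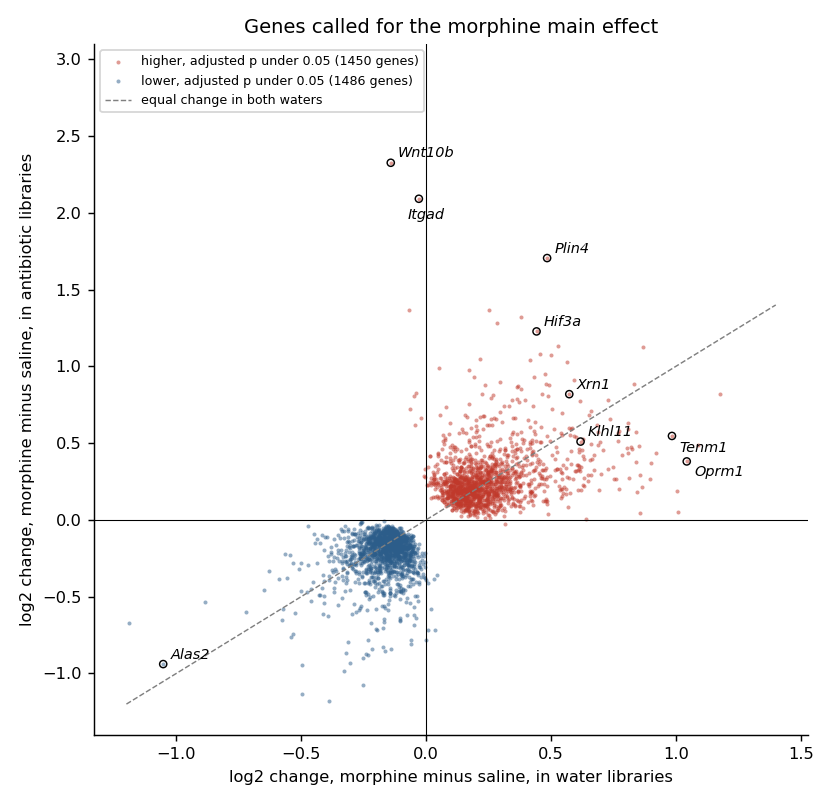
Log2 change of each of the 2936 called genes in water libraries (horizontal) and antibiotic libraries (vertical), red for higher and blue for lower, with the dashed line marking equal change. Nearly all points lie in the lower left or upper right quadrant, while Wnt10b, Itgad and Plin4 lie far above the line.

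The morphine changes of both waters were compared directly. The difference between them passed for 68 genes (0.467%), of which 20 were also called for the main effect and 9 of those 20 had opposite signs in the waters. DESeq2 called 185. The count fell to between 28 and 45 without any 1 of 10 libraries: water saline replicates 3, 4, 5 and 6, antibiotic saline replicate 1, water morphine replicates 2, 3 and 6, and antibiotic morphine replicates 1 and 3. Wnt10b, a Wnt ligand, ran from 0.794 to 1.67 CPM in water mice given saline and held 1.26, 1.05, 1.17, 1.51 and 0.911 in those given morphine. In antibiotic mice it ran from 0.850 to 1.4 under saline and held 6.69, 4.42, 6.74, 6.14 and 4.33 under morphine. The rise was thus in antibiotic mice (log2 change 2.33), water mice were at -0.14, and the pooled change was 1.27 ± 0.29 (adjusted p of the difference 0.000313). Itgad, an integrin of myeloid cells, held 0.105, 0.224, 0.195, 0.528 and 0 CPM in water mice given morphine and 3.17, 2.71, 3.64, 3.42 and 2.53 in antibiotic mice given morphine. Saline libraries held 0 to 0.706 and 0.421 to 0.866, so the groups separated in antibiotic mice and overlapped in water mice, and the difference itself did not pass (adjusted p = 0.211). Gabrr2, a GABA receptor subunit, changed by 0.25 in water mice and 1.37 in antibiotic mice (pooled 0.98 ± 0.28), a difference that did not pass either (adjusted p = 0.429). Pycrl, Tmco3, Lasp1, Fer1l5 and Arhgef19 were lower under morphine in antibiotic mice (-0.62, -0.36, -0.39, -0.64 and -0.71) and between -0.05 and 0.05 in water mice, with the difference past the threshold for each. Tufm, a mitochondrial elongation factor, and Serpinh1 also differed, at -0.09 against -0.48 and -0.16 against -0.85. Fabp7, which binds fatty acids in glia and progenitors, changed by 0.14 in water mice and -1.01 in antibiotic mice, and its pooled change did not pass (adjusted p = 0.0685). Of 36 Wnt pathway genes 3 rose and 1 fell, below the backgrounds of 9.96% and 10.2%, and the list median was 0.01. With the length trend removed 1 rose and 1 fell. Beside Wnt10b the calls were Lrp6, a Wnt coreceptor (0.23 ± 0.049), Apc (0.26 ± 0.071) and Lef1, a Wnt effector (-0.42 ± 0.11). Rbm3, a cold-inducible RNA binding protein, rose by 0.28 ± 0.066, by 0.17 in water mice and 0.39 in antibiotic mice.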

How the data were processed

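RNA of 22 nucleus accumbens samples was converted to cDNA with a SMARTer kit, fragmented and sequenced, per the labels' protocols. The authors deposited raw counts per gene for 24061 gene entries and 5 summary entries, which held 20.6% to 26.4% of each library's total and were left out of library sizes and tests. Per the submitters' processing notes, STAR 2.4.0, FastQC and edgeR were used. A counter, its strand setting and a genome build were not given in the sources used here. Antisense and overlapping genes could therefore not be told apart. A deposited table of normalized signal for 10874 genes equals the counts divided by 1 constant per library (largest relative deviation 7.16e-09) and served only as a gene filter. A total of 27 gene names had turned into dates and are not named.

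Genes passing edgeR's default filter on low counts (14564) were scaled by TMM and tested with edgeR 4.0.16 (robust quasi-likelihood, R 4.3.3) on treatment plus drinking water over all 22 libraries. Changes within each water and their difference came from a 4-group model. P-values were Benjamini-Hochberg adjusted over all tested genes, with a threshold of 0.05. CPM were computed from TMM-scaled library sizes and do not compare levels between genes, since they are not per length. Lengths are those of the longest protein-coding transcript of a symbol in the GENCODE annotation of GRCm38. The length trend was removed by offsets from a loess fit (span 0.5) of each library's centred log2 CPM on log2 length, which was chosen after seeing the data. The 6 library measures were tested by exact two-sided permutation within each water (213444 regroupings). Tests of marker list scores, planned at first, were not made. Alternatives used limma 3.58.1, DESeq2 1.42.0 and sva 3.50.0, and the fitting scripts were tested on simulated data.

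Named genes are the 15 higher and 15 lower with the smallest p, the 6 higher and 6 lower with the largest fold at a mean of at least 1 CPM, up to 4 of each list with the smallest p, the 6 called genes with the smallest p of the difference between waters, and reference genes of opioid signalling and of earlier results; systematic names were left out, and a few genes that the rule picks are not reported here. Others were named after their values were seen, to complete a count. The comparison and the lists were chosen with earlier results of these data known. No library pair of a group agreed within sampling noise. Promoter windows come from RefSeq on GRCm38.p6.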

Additional observations from a re-analysis of the deposited data

Results flagged for a closer look

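In 12 of 112 group values examined, 1 library stood apart from the rest of its group, where chance gives about 1 in 20. Rev3l was at 67.6 CPM in water morphine replicate 2 (the others at 59.8 to 61.3). Erbb4 was at 19.8 in water saline replicate 4 (the others at 22.3 to 23.8), at 38.7 in antibiotic saline replicate 6 (the others at 21.6 to 27.8) and at 47.5 in antibiotic morphine replicate 3 (the others at 38.1 to 39.2). Antibiotic saline replicate 6 also held 2463 CPM of Malat1 (the others at 184 to 368). Malat1 was at 396 in water saline replicate 6 (the others at 164 to 240) and at 1007 in antibiotic morphine replicate 4 (the others at 323 to 492). Oprm1 was at 4.43 in water morphine replicate 4 (the others at 8.0 to 8.86). C1qa was at 60.8 in antibiotic saline replicate 1 (the others at 43.9 to 49.4), Ciart at 40.2 in antibiotic morphine replicate 2 (the others at 33.6 to 34.2) and Itgad at 0.706 in water saline replicate 8 (the others at 0 to 0.251). Reads aligned more than once made up 11.9% in water saline replicate 5 and 10.4% to 10.8% in the others.

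The morphine change differed between the waters for 14 genes of the text, by the interaction in the 4-group edgeR model. As antibiotic minus water log2 change, the difference was 2.47 for Wnt10b, 1.26 for Cdkn1a, 1.05 for Arrdc2, 0.79 for Fkbp5, 0.68 for Mfsd2a and 0.38 for Cldn11. It was -1.15 for Fabp7, -0.72 for Arhgef19, -0.69 for Serpinh1, -0.60 for Fer1l5, -0.57 for Pycrl, -0.42 for Lasp1, -0.40 for Tmco3 and -0.38 for Tufm.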

How the results depend on the processing

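Of the 149 genes of the text that passed, 133 kept their call without each library in turn. Calls of the main effect then numbered 2334 to 3123, those of the difference between waters 28 to 100 (28 without water morphine replicate 2), within water mice 509 to 1118 (509 without water morphine replicate 2), within antibiotic mice 1084 to 2048 (1084 without antibiotic saline replicate 1), and genes separated in all libraries 22 to 86 (86 without antibiotic saline replicate 6). The length slope differed by 0.0715 to 0.0820. The difference in Malat1 CPM ran from -57.3 to 187, and the log2 changes from -0.0071 to 0.76 for Malat1, from -0.034 to 0.019 for Cldn11 and from -0.00036 to 0.062 for Mobp. Calls were also lost for genes near the threshold: Cplx2 and Tmco3 without any 1 of 16 libraries, Rgs4 of 14, Rgs10, Per3 and Fkbp5 of 10, Rora of 8, Lasp1 of 6, Rgs5 of 4 and Nrg3 of 3. The main count of 2936 was 2961 with RLE and 3008 with upper quartile scaling, 3196 with DESeq2, 3023 with limma-voom and 2571 without a filter. It was 1908 without the water term, 1316 at an adjusted p under 0.01, 964 with water libraries alone, 1163 with antibiotic libraries alone (also the count within antibiotic mice fitted alone), 1592 with the length trend removed, and 0 with the length slope as a covariate in edgeR, in limma-voom and in edgeR without antibiotic saline replicate 6. DESeq2 called 185 genes for the difference between waters. Replicate numbers do not pair the samples by the labels: same-numbered libraries correlated at -0.478 to 0.353 and 4 correlated best with their own number, and with the replicate number as a block 2165 genes were called. The other settings gave 2494 to 3593 calls. Signs reversed with water libraries alone for Apod -0.14, Arhgef19 0.012, Arrdc2 -0.19, Cdkn1a -0.35, Fabp7 0.14, Fkbp5 -0.058, Itgad -0.024, Lasp1 0.039, Mal -0.057, Mfsd2a -0.20, Mobp -0.17, Oprk1 -0.022, Tmco3 0.051, Tspan2 -0.049 and Wnt10b -0.14, and for the list median of glucocorticoid-responsive genes -0.021. They reversed with antibiotic libraries alone for Cldn11 0.18, Malat1 -0.24 and Sall1 -0.059. With the length trend removed they reversed for Cldn11 0.037 and the medians of sodium and calcium channels -0.015 and chromatin and DNA methylation enzymes -0.0065. With the length slope as a covariate they reversed for Cacna1e -0.069, Cldn11 0.10, Clock -0.017, Gabrg3 -0.082, Grin2a -0.065, Jund 0.021, Kcnma1 -0.12, Kcnq3 -0.0024, Malat1 -1.52, Nos1 -0.095, Oprd1 -0.22, Pclo -0.20, Pdyn 0.018, Penk 0.043, Rora -0.033 and Sall1 -0.050, and for the medians of sodium and calcium channels -0.0025, synaptic and neuronal adhesion -0.021, mitochondrial ribosome and translation 2.98e-05, chromatin and DNA methylation enzymes -0.023 and interferon-stimulated and MHC class I genes 0.0090. In limma-voom with the slope these were Cacna1e -0.070, Cldn11 0.10, Clock -0.019, Gabrg3 -0.086, Grin2a -0.089, Jund 0.019, Kcnma1 -0.12, Malat1 -1.38, Nos1 -0.097, Oprd1 -0.23, Pclo -0.20, Pdyn 0.048, Penk 0.070, Rora -0.041 and Sall1 -0.058, and the medians of synaptic and neuronal adhesion -0.019 and chromatin and DNA methylation enzymes -0.023. In edgeR with the slope and without antibiotic saline replicate 6 they were Acsbg1 0.029, Apc -0.088, Atm -0.018, Cldn11 0.20, Clock -0.057, Kcnma1 -0.022, Malat1 -0.15, Nos1 -0.053, Nr1d2 -0.079, Oprd1 -0.13, Pclo -0.031, Pdyn 0.19, Penk 0.0055, Scn2a1 -0.043 and Smg1 -0.021, and the medians of sodium and calcium channels -0.043, synaptic and neuronal adhesion -0.037, mitochondrial ribosome and translation 0.015 and antioxidant and selenoprotein genes 0.034. The cause of these changes was not tested. The replicate spread, with 5 or 6 libraries a group, limits what low-count genes such as Itgad and Alas2 can show, and the p-values rest on samples whose independence the labels do not state.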
